A study of Arabidopsis thaliana with 8 samples.

Results

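The comparison set seedlings that overexpress HRA1 against wild-type seedlings in air, without any stress. It used 4 of the 8 ATH1 arrays of the series, those of the OE-HRA1_2NS and Col-0_2NS groups with 2 arrays each. OE-HRA1 plants carry the HRA1 cDNA with a C-terminal FLAG tag behind the constitutive cauliflower mosaic virus promoter, in the Col-0 ecotype, so the transgene is driven in most cell types and not only where HRA1 is normally active. The OE-HRA1 arrays are transgenic lines #1 and #2 with 1 array per line, whereas the Col-0 arrays are replicates 1 and 2 of the wild type. All seedlings were 7 d old, grown on sucrose-containing medium under long days, and spent 2 h in chambers open to ambient air. The same lines and the wild type were also profiled after 2 h of argon-induced hypoxia, on 4 other arrays. These arrays entered the estimate of the spread and served for a second look at probe sets found in air.

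HRA1 (AT3G10040) encodes a nuclear protein of the trihelix family, plant-specific DNA-binding proteins, and its own transcript is induced by low oxygen. Group VII ERF transcription factors such as RAP2.12 are degraded in air through an oxygen-dependent pathway and accumulate when oxygen falls, when they switch on a core set of hypoxia genes that serve fermentation, sugar breakdown and oxygen sensing. Air-grown seedlings therefore compare lines with constitutive HRA1 and the wild type where that programme was largely off.

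Values are RMA signals in log2 units, and differences are signal log2 ratios (SLR), OE-HRA1 minus Col-0, from a linear model in limma over all 8 arrays. Calls required a Benjamini-Hochberg adjusted p under 0.01 over 22645 probe sets together with an SLR beyond 1 in either direction. Each group has 2 arrays, and p-values rest only on the spread between arrays within the 4 groups. The limma model moderates that spread toward that of all probe sets. Within OE-HRA1 it lies between lines, and within Col-0 between replicates. Within the 4 groups the arrays correlated at 0.994 to 0.997. The leaf marker RCA (rubisco activase) read 14.56 and 14.56 in OE-HRA1 and 14.59 and 14.56 in Col-0. The root marker PYK10, a beta-glucosidase of ER bodies, read 13.87 and 13.99 in OE-HRA1 and 14.12 and 14.28 in Col-0, so leaf and root RNA were both present as the label seedling implies. In whole seedlings, fewer cells of a type and less RNA per cell cannot be told apart.

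HRA1 itself showed the transgene. It read 12.98 and 13.09 on the OE-HRA1 arrays of lines #1 and #2, against 7.20 and 7.00 on the Col-0 arrays. The lines were 61.3-fold higher (SLR 5.94, SE 0.13, 95% interval 5.63 to 6.24, limma adjusted p = 1.12e-06, n = 2 per group). Both lines had nearly the same level, 5.88 and 5.99 above the Col-0 mean. The probe set does not separate transgene from endogenous transcript in these data.

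Beyond HRA1, few probe sets were called. With 2 arrays per group, the calls do not count all transcripts that differed. At an unadjusted limma p under 0.05 there were 3303 probe sets (14.6%). At an adjusted p under 0.05 with any SLR, 118 were higher (0.521%) and 172 lower (0.76%). In OE-HRA1, 9 of 22645 probe sets were called higher (0.0397%, HRA1 included) and 16 were called lower (0.0707%). The median SLR of all probe sets was 0.01. All 25 called probe sets kept the arrays of the groups apart, by at least 0.82 log2 units, which a call in part requires. Of all probe sets, 25.4% were higher and 22.9% lower without overlap. A single gene name was at hand for 22 of them, 13 from the platform table and 9 from the study's own table of differentially expressed genes. Of the 25 calls, HRA1 alone held whichever of the 4 air arrays was left out. AT2G16380 held without 1 of the 4, and each of the other 23 ended whichever array was left out, with adjusted p up to 0.0857. A block for the OE-HRA1 line makes the SLR that of line #1 against Col-0, and not that of both lines. It kept 3 of the 25, HRA1, PDC1 and AT2G16380. PDC1 and AT2G16380 lay farther from Col-0 in line #1 (-2.40 and -1.89) than in line #2 (-1.90 and -1.35). Fitting only the air arrays kept 1, HRA1. The replicate block kept 7 of the 9 higher and 10 of the 16 lower calls.

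**Figure D1:**
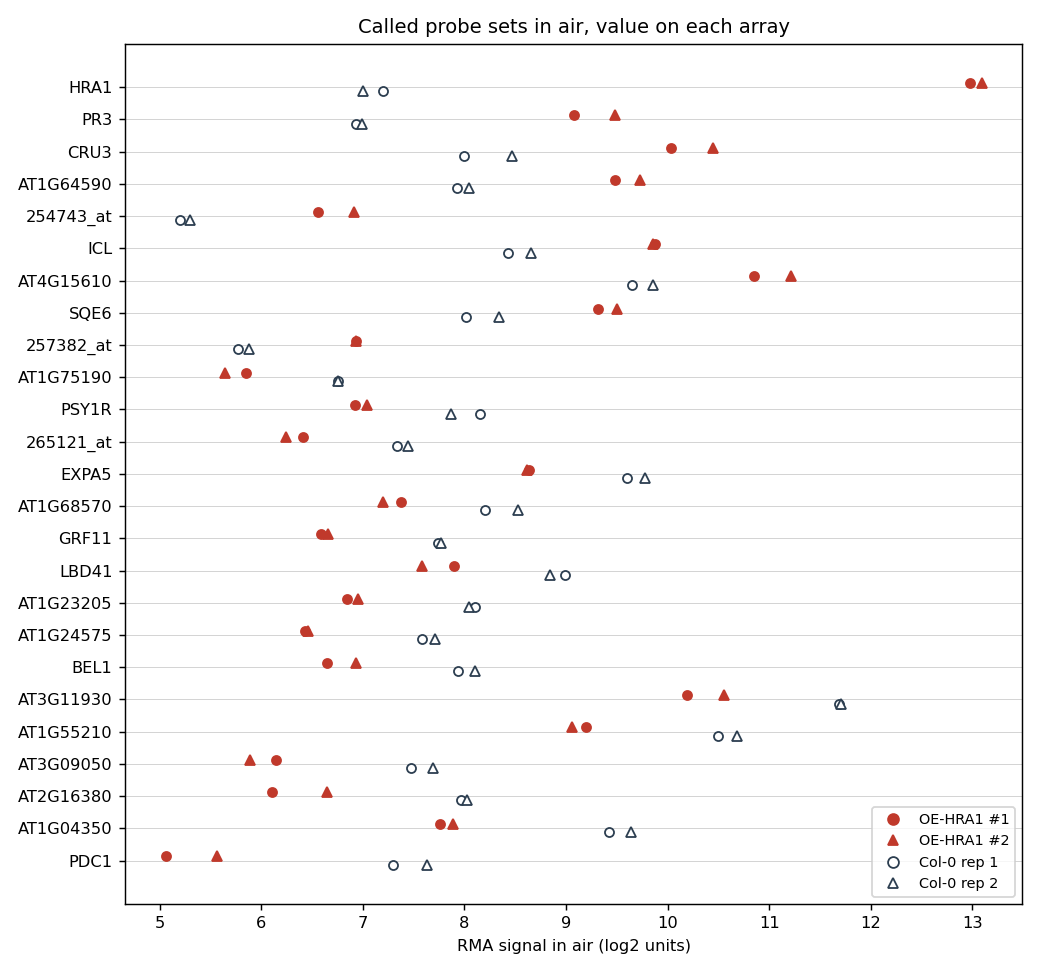
RMA signal (x axis, log2 units) of the 25 probe sets called in air (y axis, ordered by SLR), as filled red symbols for OE-HRA1 and open symbols for Col-0, with circles for line #1 or replicate 1 and triangles for line #2 or replicate 2. The symbols of OE-HRA1 and Col-0 do not overlap in any line of the plot, which a call in part requires. HRA1 lies farthest apart, near 13 in OE-HRA1 and 7 in Col-0.

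Among the probe sets that rose, the largest change after HRA1 was in PR3, a basic chitinase of the pathogenesis-related proteins. It read 9.08 and 9.48 in OE-HRA1 and 6.93 and 6.99 in Col-0, 5.00-fold higher (SLR 2.32, SE 0.19, limma adjusted p = 0.00596, n = 2 per group). The cruciferin CRU3, a seed storage protein, read 10.04 and 10.44 in OE-HRA1 and 8.00 and 8.47 in Col-0 (SLR 2.01, SE 0.22, adjusted p = 0.00911). AT1G64590, a Rossmann-fold dehydrogenase-like protein, read 9.48 and 9.73 in OE-HRA1 and 7.93 and 8.04 in Col-0 (SLR 1.62, adjusted p = 0.00245). ICL, isocitrate lyase of the glyoxylate cycle, which turns stored lipid into sugar in germinating seeds, was tightly grouped. It read 9.88 and 9.86 in OE-HRA1 and 8.43 and 8.66 in Col-0 (SLR 1.32, SE 0.10, adjusted p = 0.00515). SQE6, of the squalene epoxidase family, was 2.35-fold higher, and AT4G15610, a CASP family membrane protein, 2.42-fold higher. The 2 higher probe sets with no single gene name, 254743_at and 257382_at, had SLRs of 1.49 and 1.10.

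PDC1, pyruvate decarboxylase, the entry enzyme of ethanol fermentation, fell the most of the called probe sets. It read 5.06 and 5.56 in OE-HRA1 and 7.29 and 7.63 in Col-0, 4.44-fold lower (SLR -2.15, SE 0.22, limma adjusted p = 0.0081, n = 2 per group). LBD41, a LOB-domain transcription factor, is likewise a core hypoxia gene. It read 7.90 and 7.58 in OE-HRA1 and 8.99 and 8.84 in Col-0 (SLR -1.18, SE 0.12, adjusted p = 0.00906). PDC1 kept its call with the replicate number or the OE-HRA1 line as a block (limma adjusted p = 0.00265 and 0.00259), whereas LBD41 did not (adjusted p = 0.016 and 0.0404). The other called probe sets that fell are not core hypoxia genes.

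AT1G04350, a 2-oxoglutarate-dependent dioxygenase, read 7.76 and 7.88 in OE-HRA1 and 9.42 and 9.64 in Col-0 (SLR -1.71, adjusted p = 0.00245). AT2G16380, a Sec14-like lipid transfer protein, was 3.07-fold lower, with the lines farther apart than most, at 6.11 in line #1 and 6.64 in line #2 against 7.96 and 8.03 in Col-0. Further decreases were in AT3G09050 (SLR -1.57), the dirigent-like AT1G55210 (SLR -1.46) and AT3G11930 (SLR -1.33), of the universal stress protein family. Regulators and signalling proteins were present in this group too. BEL1, a homeodomain protein known from ovule development, read 6.64 and 6.93 in OE-HRA1 and 7.93 and 8.10 in Col-0 (SLR -1.23, adjusted p = 0.0081). The 14-3-3 protein GRF11 read 6.59 and 6.66 in OE-HRA1 and 7.74 and 7.77 in Col-0 (SLR -1.13, adjusted p = 0.00596). PSY1R, the receptor kinase of a sulfated growth peptide, had an SLR of -1.03.

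Proteins of the wall and membrane made up part of the rest. EXPA5, an expansin that loosens cell walls, read 8.63 and 8.62 in OE-HRA1 and 9.60 and 9.78 in Col-0 (SLR -1.06, SE 0.10, adjusted p = 0.0069). AT1G23205, of the pectin methylesterase inhibitor family, had an SLR of -1.18, and AT1G68570, the NPF3.1 transporter, one of -1.08. AT1G24575 and AT1G75190, whose roles are not given here, had SLRs of -1.20 and -1.01, and the probe set 265121_at without a single name had -1.06.

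The lines lay close together on the called probe sets, which a call in part requires. For 21 of the 25, each line on its own lay more than 1 log2 unit from the Col-0 mean. Line #1 was the farther of both from Col-0 in 10 and line #2 in 15. The median difference between the lines over the 25 was 0.19 log2 units, and the largest was 0.54.

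The hypoxia arrays hold other RNA of the same lines and wild type, and their values do not enter the SLR in air. They do enter the spread behind the calls in air, and both comparisons used the same spread per probe set. Calls on both sets of arrays are therefore not separate checks. Same-numbered arrays were not free of each other, since their deviations from the group means correlated between air and hypoxia at 0.37 over the probe sets in Col-0 and at 0.15 in OE-HRA1. For both Col-0 hypoxia arrays one source label gives the air treatment, and they were taken as hypoxia arrays from their titles and treatment labels. On them, 69 probe sets were called higher (0.305%) and 142 lower (0.627%) in OE-HRA1. Of the 9 called higher in air, 7 were called higher there too, the exceptions being HRA1 (SLR 0.18) and PR3 (SLR 0.74). In Col-0 both stood higher under hypoxia than in air. Under hypoxia HRA1 read 12.19 and 12.02 in OE-HRA1 and 11.74 and 12.10 in Col-0. PR3 read 9.95 and 10.14 in OE-HRA1 and 9.58 and 9.02 in Col-0. Of the 16 called lower in air, 12 were called lower on the hypoxia arrays. The exceptions were AT1G24575 (SLR -0.93), EXPA5 (SLR -0.83), GRF11 (SLR -0.79) and 265121_at (SLR -0.53). All 25 had the same sign on both sets of arrays. The median SLR of the lower 16 was -1.19 in air and -1.39 under hypoxia. The SLR differed between hypoxia and air past the thresholds for 1 of the 25, against 0.168% of all probe sets. It was HRA1 (by -5.75, limma interaction adjusted p = 2.4e-05, n = 2 per group). Next by adjusted p were AT1G23205 (by -1.33, adjusted p = 0.0118) and PDC1 (by -2.40, adjusted p = 0.0236).

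**Figure D2:**
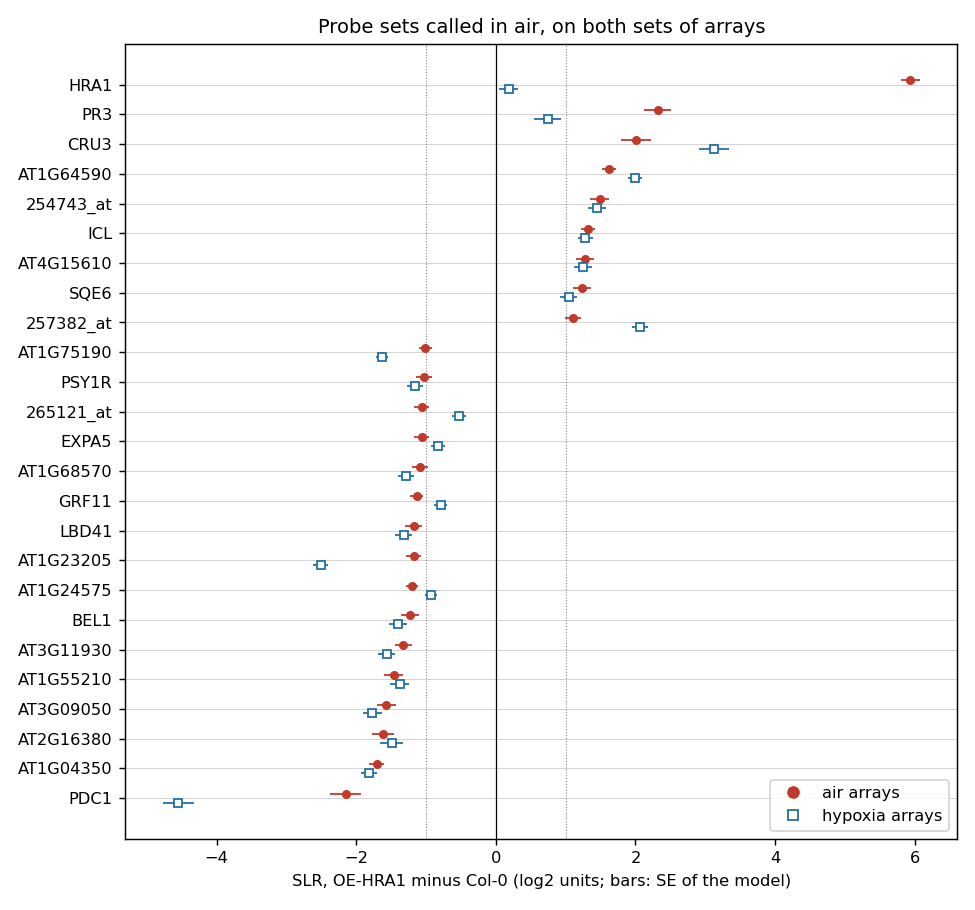
SLR, OE-HRA1 minus Col-0 in log2 units (x axis), of the 25 probe sets called in air (y axis), with red circles for the air arrays and open blue squares for the hypoxia arrays. Bars are the standard error of the model, and dotted lines mark an SLR of 1 and -1. HRA1 lies at 5.94 in air and 0.18 under hypoxia, and every other pair lies on the same side of 0.

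Most core hypoxia genes were not called between the genotypes in air. The study's table marks 46 probe sets as core, HRA1 among them. Their median SLR was -0.09, against 0.01 for all probe sets. The marks stand in its table of differentially expressed genes, which favours genes that moved in some comparison. In air 2 of the 46 were called lower, PDC1 and LBD41, against 0.0707% of all probe sets. HRA1 alone was called higher, against 0.0397%. At a limma adjusted p under 0.05 with any SLR, 6 of the 46 were lower and 2 higher, against 0.76% and 0.521%. Arrays of the groups did not overlap for 19 lower and 9 higher of the 46, against 22.9% lower and 25.4% higher of all probe sets. On the hypoxia arrays 36 of the 46 were called lower, against 0.627% of all probe sets. The study took its core set from earlier work on hypoxia, and the 46 are the probe sets marked in the copy of the table used here.

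**Figure D3:**
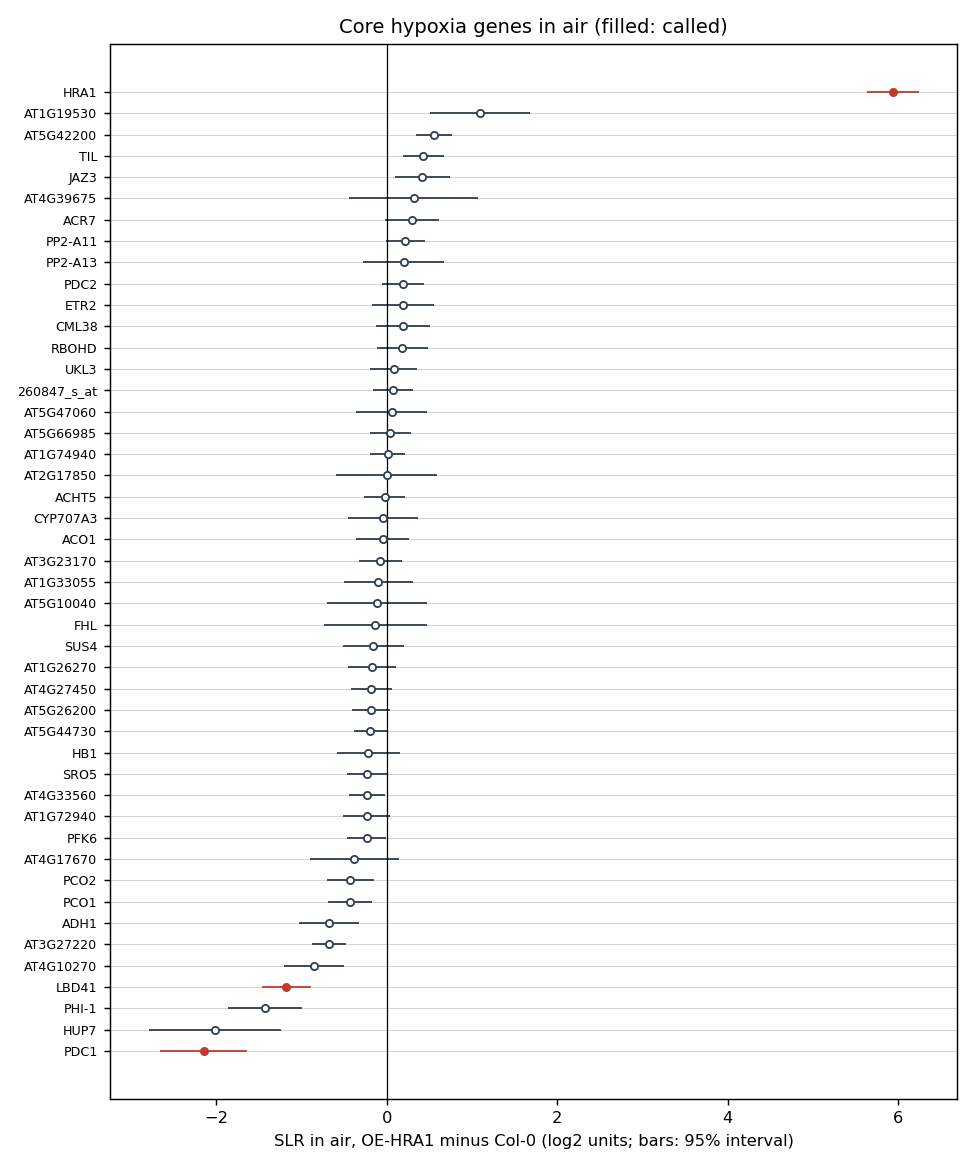
SLR in air, OE-HRA1 minus Col-0 in log2 units (x axis), of the 46 core hypoxia probe sets (y axis), with the 95% interval of the model as bars and filled red symbols for called probe sets. PDC1 (-2.15) and LBD41 (-1.18) are the called decreases, HRA1 (5.94) the called increase, and most of the rest lie near 0.

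Several core genes stood lower without a call. HUP7 (AT1G43800), an acyl desaturase family member, read 7.10 and 6.97 in OE-HRA1 and 8.85 and 9.26 in Col-0 (SLR -2.02, limma adjusted p = 0.0335, n = 2 per group). PHI-1, a phosphate-induced protein, read 5.66 and 5.87 in OE-HRA1 and 7.42 and 6.97 in Col-0 (SLR -1.43, adjusted p = 0.0155). Neither pair of groups overlapped. ADH1, alcohol dehydrogenase, the second enzyme of ethanol fermentation, read 8.21 and 8.11 in OE-HRA1 and 8.57 and 9.11 in Col-0 (SLR -0.68, adjusted p = 0.0871). AT4G10270 had an SLR of -0.85 and AT3G27220 one of -0.68. The plant cysteine oxidases PCO1 and PCO2, oxygen sensors that act on the N-terminus of group VII ERFs, had SLRs of -0.43 and -0.43.

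Other genes of the same pathways lay near 0 in air. PDC2, the other pyruvate decarboxylase with a named probe set, read 10.54 and 10.54 in OE-HRA1 and 10.24 and 10.46 in Col-0 (SLR 0.19, 95% interval -0.06 to 0.44). SUS4, a sucrose synthase, had an SLR of -0.16 (95% interval -0.52 to 0.20), and PFK3, a phosphofructokinase, one of 0.09 (95% interval -0.18 to 0.37). HRE1, a hypoxia-induced group VII ERF, had an SLR of 0.22 in air, where its arrays overlapped. Some core genes stood higher, among them AT1G19530 with an SLR of 1.09 (adjusted p = 0.0958) and AT5G42200 with 0.55 (adjusted p = 0.0324), both picked after their values were seen.

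Arrays of the groups did not overlap for 5746 higher and 5193 lower probe sets, 25.4% and 22.9% of those tested, since with 2 arrays per group small shifts separate many of them. A gap of at least 1 log2 unit was left by 20 higher (0.0883%) and 25 lower (0.11%) probe sets, of which 17 were called. The remaining 13 higher and 15 lower probe sets were not called.

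The largest SLR among the lower uncalled genes without overlap was that of CORI3, a jasmonate-responsive cystine lyase. It read 6.19 and 7.04 in OE-HRA1 and 8.98 and 10.07 in Col-0 (SLR -2.90, SE 0.41, limma adjusted p = 0.0198, n = 2 per group). MAM3, which elongates methionine for aliphatic glucosinolates, read 7.51 and 7.88 in OE-HRA1 and 9.65 and 9.50 in Col-0 (SLR -1.88, adjusted p = 0.0145). The latex-like protein MLP165 had an SLR of -1.63, AT3G16670 one of -1.62, the carboxypeptidase-like SCPL13 one of -1.55, and the cytokinin response regulator ARR8 one of -1.51. AT3G05900 (SLR -1.72), AT5G16730 (SLR -1.70) and AT3G19370 (SLR -1.61) belonged to this group too, but their lines stood far apart. AT3G05900 read 7.81 in line #1 and 6.02 in line #2, against 8.43 and 8.83 in Col-0.

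Of the 10 named probe sets with the largest uncalled SLRs on the higher side, PDF1.2B, a plant defensin, came first. It read 11.92 and 12.22 in OE-HRA1 and 9.58 and 10.23 in Col-0 (SLR 2.16, adjusted p = 0.016). PDF1.2A, its close relative, read 10.28 and 10.63 in OE-HRA1 and 7.83 and 9.34 in Col-0 (SLR 1.87, adjusted p = 0.111), with the Col-0 arrays far apart. Near-identical family members of this kind can share probe signal. OSM34, an osmotin, had an SLR of 1.68, the salicylic acid marker PR1 one of 1.50, the wall-associated kinase WAK1 one of 1.41 and CYP71A12, of camalexin synthesis, one of 1.30. SAG14, a blue copper-binding protein of senescence, read 9.06 and 9.18 in OE-HRA1 and 8.20 and 6.66 in Col-0 (SLR 1.69, adjusted p = 0.11). Also in this group were AT1G54870 (SLR 1.58), AT4G02360 (SLR 1.49) and the malate transporter ALMT1 (SLR 1.38).

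The gene lists are described by counts and medians, to be set against the median SLR of 0.01 and the 25.4% higher and 22.9% lower of all probe sets without overlap. The lists were chosen with earlier results of these data known, and some members are genes given singly above. Their medians are therefore descriptions and no separate support. A gene enters these counts only if its probe set has a name. Many names came from the study's table of differentially expressed genes, which favours genes that moved in some comparison. The platform table named 4 of 6 osmotin and pathogenesis-related probe sets, 2 of 8 in the salicylic acid list, 3 of 19 early stress regulators, 4 of 10 in the sugar starvation list, 3 of 10 in the root hair list, 2 of 8 in the glucosinolate list, 1 of 5 seed genes and none of the 8 in the phosphate list. Of the 9 osmotin and pathogenesis-related genes listed, 6 had a named probe set, with a median SLR of 1.77. Of these, 5 had no overlap and stood higher, PR3 being called. The salicylic acid and defence list had 8 probe sets with a median SLR of 0.48, of which 7 stood higher without overlap. The 2 platform-named probe sets of this list had a median SLR of -0.07, 1 higher and 1 lower without overlap. WRKY70, a regulator between salicylic acid and jasmonate signalling, read 8.15 and 8.03 in OE-HRA1 and 7.19 and 7.27 in Col-0 (SLR 0.86, limma adjusted p = 0.0369, n = 2 per group). The early stress regulators, induced by wounding and touch, had 19 probe sets with a median SLR of 0.21, 12 of them higher without overlap. ERF5 (SLR 0.80), ERF6 (SLR 0.74) and the touch gene TCH4 (SLR 1.02) had the largest SLRs there.

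Genes of sugar starvation and darkness stood higher in OE-HRA1, with a median SLR of 0.60 over 10 probe sets, of which 8 had no overlap. DIN11, a dark-inducible dioxygenase, read 8.61 and 8.35 in OE-HRA1 and 7.39 and 7.12 in Col-0 (SLR 1.23, adjusted p = 0.0151), and DIN2, a beta-glucosidase, had an SLR of 1.20 (adjusted p = 0.0237). In the root hair list 9 of 10 probe sets had no overlap and stood higher, with a median SLR of 0.45. Summed on the linear scale, its 10 probe sets came to 4116 and 5351 in OE-HRA1 and 3440 and 3255 in Col-0. The sum of the 3 root marker probe sets, most of it PYK10 signal, went the other way. It was 15563 and 17000 in OE-HRA1 and 19110 and 20556 in Col-0. The 3 did not move together. PYK10 (SLR -0.27) and TIP2;3 (SLR -0.87) were lower, whereas COBL9 (SLR 0.32), also a member of the root hair list, was higher. How far root hair cells differed between the groups was not tested.

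Glucosinolate genes stood lower. Of 8 probe sets, 7 had no overlap and were lower in OE-HRA1, with a median SLR of -0.48. MYB28, the activator of the aliphatic branch, read 8.81 and 8.94 in OE-HRA1 and 10.02 and 10.34 in Col-0 (SLR -1.31, adjusted p = 0.0331). CYP83B1, of the indolic branch, read 10.05 and 10.10 in OE-HRA1 and 11.14 and 11.66 in Col-0 (SLR -1.33, adjusted p = 0.0237). Under hypoxia the SLRs were -0.61 for MYB28 and -0.43 for CYP83B1, against -1.93 for MAM3. CYP79B2, also of this list, changed sign, from -0.50 in air to 0.93 under hypoxia. The list's median SLR under hypoxia was -0.30. Phosphate starvation genes had a median SLR of -0.44 over 8 probe sets, with 5 lower without overlap. SPX1, a phosphate sensor, read 7.11 and 7.17 in OE-HRA1 and 8.06 and 8.56 in Col-0 (SLR -1.16, adjusted p = 0.0241).

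The wall-loosening genes were split. Of 17 expansin and XTH probe sets, 7 were lower and 5 higher without overlap, with a median SLR of -0.16. EXPA5 and EXPA15 (SLR -1.32, adjusted p = 0.0231) were lower, as was XTH20 (SLR -0.88), whereas TCH4, also an XTH, was higher. The photosynthesis list lay near 0, with a median SLR of 0.01 over 7 probe sets, from 39 listed genes. Signals there were high, such as 14.56 for RCA and 13.57 for PRK in line #1, where a difference may not show. The reference genes SAND, TIP41 and UBC21 had SLRs of 0.12, 0.06 and 0.01.

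**Figure D4:**
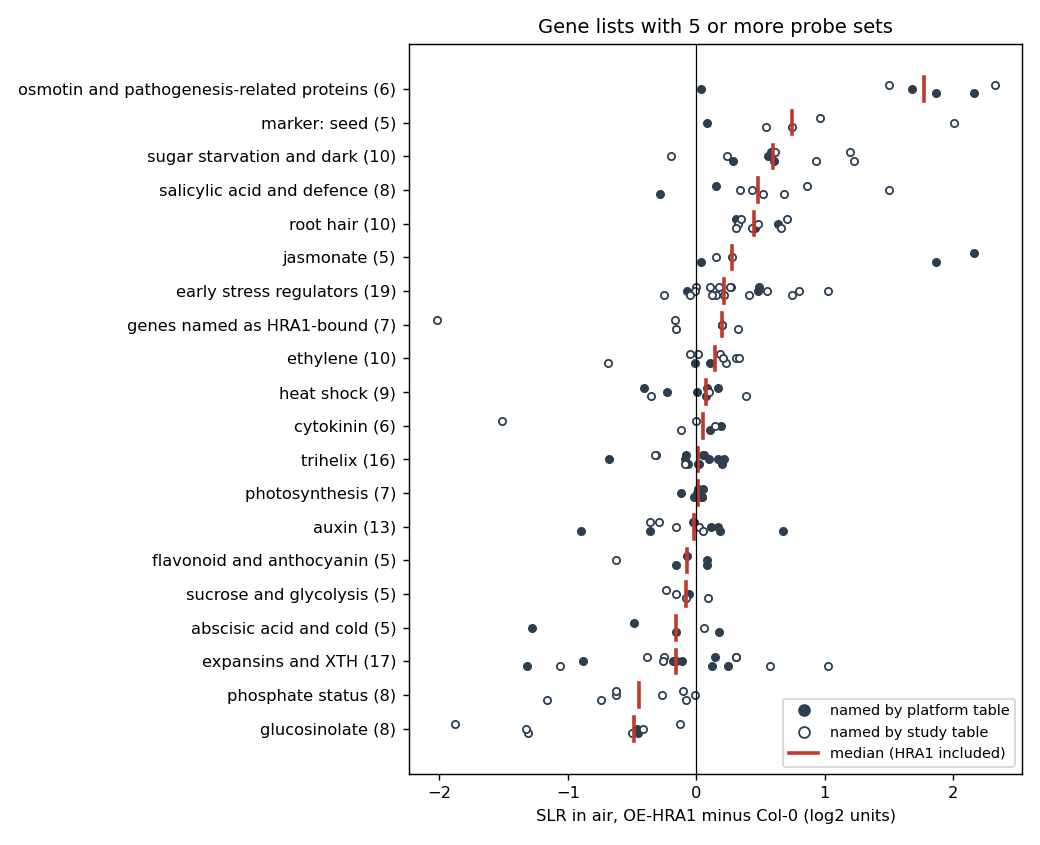
SLR in air, OE-HRA1 minus Col-0 in log2 units (x axis), of the probe sets in each list with 5 or more (y axis, number of probe sets in brackets), with filled points named by the platform table, open points named by the study's table and a red bar at the list's median. HRA1 itself is not drawn. The lists range from a median of 1.77 for osmotin and pathogenesis-related proteins to -0.48 for glucosinolate genes.

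Of the 15 seed genes listed, 5 had a named probe set. CRU3 was called higher, and 3 more, all named by the study's table like CRU3, had no overlap and positive SLRs that did not pass. The platform-named AT1G03890, of the cruciferin family, had an SLR of 0.085 and overlapping arrays. OLEO1, an oleosin of oil bodies, read 8.12 and 8.17 in OE-HRA1 and 6.73 and 7.64 in Col-0 (SLR 0.96), and OLEO2 read 10.13 and 10.06 in OE-HRA1 and 9.03 and 9.66 in Col-0 (SLR 0.75). The summed linear signal of the 5 was 3654 and 3965 in OE-HRA1 and 1478 and 2555 in Col-0, so the Col-0 arrays differed among themselves. CRU3 and ICL stand beside these values, and the part of seed RNA in their increase was not tested.

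The lines differed from each other at fewer probe sets than the Col-0 arrays did. Lines #1 and #2 were more than 1 log2 unit apart at 43 probe sets in air, and the Col-0 arrays at 71 (0.314%). In 42 of the 43 line #1 was higher (0.185%). Line #2 lay below both Col-0 arrays in 41 of the 42, and Col-0 replicate 2 lay above replicate 1 in 40 of them, against 52.3% of all probe sets. The median SLR of the 42 was -0.89. Under hypoxia line #1 was higher in 39 of the 42, by a median of 0.64 log2 units. The farthest apart were 249271_at, AT3G05900 and AT1G65010, with line differences of 2.25, 1.79 and 1.76.

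The single probe set lower in line #1 by over 1 (0.00442%) was that of AT4G16410. It read 6.37 in line #1 and 11.75 in line #2, against 11.43 and 11.46 in Col-0. The difference between the lines was -5.38 in air and -5.36 under hypoxia. Because the lines were averaged, the limma contrast gave it an SLR of -2.39 with an SE of 1.88 (adjusted p = 0.644, n = 2 per group). The 5 named genes on each side of it along the chromosome, in locus order, differed between the lines by at most 0.51 log2 units. The median over all probe sets was 0.09. AT4G16400 and AT4G16380 were lower in line #1, by 0.51 and 0.46. Others were higher in line #1, such as AT4G16470 by 0.27. Genes without a named probe set were not looked at.

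**Figure D5:**
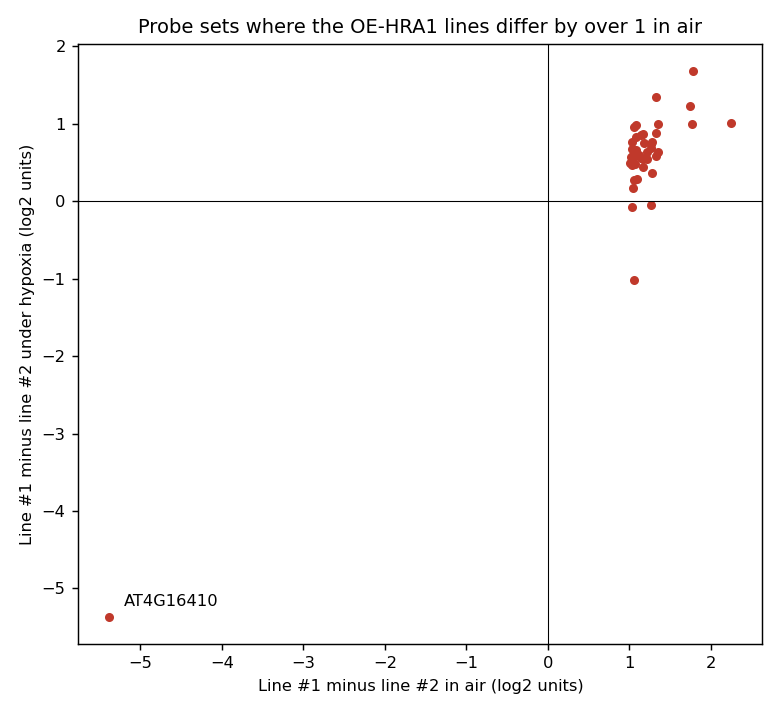
Difference between OE-HRA1 lines #1 and #2 in log2 units, in air (x axis) and under hypoxia (y axis), for the 43 probe sets more than 1 apart in air. AT4G16410 lies alone at -5.38 and -5.36, and 42 points lie to the right of 0.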

How the data were processed

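Total RNA of whole seedlings was hybridised to Affymetrix ATH1 arrays, 8 in all with 2 per group. The authors deposited RMA values on the log2 scale, the only data used here. Per the study's methods, MAS5 gave present calls and RMA was run together with arrays of another experiment. Whether the deposited table came from that run is not stated, and the present-call filter was not repeated. Of 22810 probe sets, 64 control and 101 organelle probe sets were left out. Unnamed organelle probe sets can remain. A single gene name came from the platform annotation for 13420 tested probe sets, updated through RefSeq (TAIR10.1), and from the study's table for 573. The remaining 8652 had none.

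The 4 group means were fitted to all 8 arrays by a linear model in R 4.3.3 with limma 3.58.1 (4 residual and 4.14 prior degrees of freedom), and tested on simulated data. Deviations of same-numbered arrays from their group means correlated at -0.09 between OE-HRA1 and Col-0 in air, so the numbers do not pair them. The OE-HRA1 numbers are lines, which recur under hypoxia, where the correlation with the air arrays was 0.15. For Col-0 it was 0.37, and the labels do not say what the number stands for. Members and lists were chosen with earlier results of these data known. Named genes were HRA1, called probe sets, in each direction the 10 uncalled named probe sets with the largest |SLR| and no overlap, the 8 lowest core genes, up to 4 members per list, and the largest line differences. Of 32 gene lists, 2 had no member with a named probe set, though unnamed probe sets may measure such members. Alternatives were other filters, priors, scalings, blocks, thresholds, the air arrays alone, and leaving out arrays or lines. The number of arrays limits the precision.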

Additional observations from a re-analysis of the deposited data

Results flagged for a closer look

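For 13 of the genes named for the air comparison, the genotype effect differed between hypoxia and air. They passed the thresholds in the interaction term of limma, against 0.168% of all probe sets. Besides HRA1 (SLR under hypoxia minus SLR in air -5.75), these were core genes or genes of fermentation, sugar breakdown and oxygen sensing, with a lower SLR under hypoxia than in air. The difference was -4.46 for SUS4, -3.72 for AT1G19530, -3.38 for HRE1, -2.96 for PHI-1, -2.39 for PFK6, -2.06 for PDC2 and -2.04 for ADH1. It was -1.95 for PCO2, -1.79 for AT3G27220, -1.75 for PCO1, -1.67 for AT5G42200 and -1.54 for PFK3. AT1G19530 and AT5G42200 were picked for high SLRs in air after their values were seen, which by itself favours a negative difference. Core genes not named for the air comparison passed too, such as AT5G10040 (by -5.18) and ETR2 (by -2.16). With 2 arrays per group, no group could be examined for single outlying arrays.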

How the results depend on the processing

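The count of calls in air, 9 higher and 16 lower, was small and depended on the model. The lower count was 9 in the top 40% by mean signal, and the higher count 16 with a trend prior. With only the air arrays the counts were 2 and 1 (of the 25 calls only HRA1), with treat 1 and 0, at an adjusted p under 0.05 25 and 46, and with no minimum SLR the lower count was 25. Leaving out a single array or a line gave 1 to 2 higher and 0 to 1 lower. The replicate block gave 8 higher and 13 lower, with 1 core gene, PDC1, and 1 list probe set called lower. Blocking on the OE-HRA1 line, where the SLR is that of line #1 against Col-0, gave 1 higher and 3 lower (2 of them among the 16). Among these, 1 core gene, PDC1, and 1 list probe set were lower and 1 list probe set was higher. Replicate numbers do not pair Col-0 with OE-HRA1. Core genes called lower (2) numbered 0 with the air arrays alone, treat, or any array or line left out, and 4 at an adjusted p under 0.05. Probe sets of the lists other than the marker lists called higher and lower (2 and 2) numbered 1 and 0 under the same settings and 6 and 8 at that threshold, and 4 higher with a trend prior. Of the calls in air, those repeated on the hypoxia arrays (7 and 12) numbered 3 and 2 with treat, 5 lower in the top 40%, and 1 to 7 and 2 to 12 with an array or line left out. Calls of the difference between hypoxia and air among them (1) numbered 2 with a trend prior, a robust prior or either block, 3 at an adjusted p under 0.05, and 0 to 1 with an array or line left out. Non-overlapping probe sets (5746 higher, 5193 lower) numbered 3511 higher in the top 60%, 2432 and 2341 in the top 40%, 144 and 190 with a gap of at least 0.5, and 20 and 25 with a gap of at least 1. Differences between lines and between Col-0 arrays (43 and 71) numbered 16 and 37 in the top 40%, and 312 and 523 over 0.5. With a single array left out, the SLR of AT4G16410 ran from -5.08 to 0.30 and that of UBC21 from -0.023 to 0.048. UBC21 was -0.027 with the OE-HRA1 line as replicate block. RCA was 0.022 with quantile normalization again and 0.008 with median centring. HRA1 kept its call in every alternative run.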
